A study of Mus musculus with 14 samples.

Results

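The genes described here are 10 interferon-induced GTPases of mouse, Gbp2, Gbp3, Gbp5, Gbp6, Gbp7 and Gbp9 of the guanylate-binding protein (Gbp) family and Igtp, Irgm1, Irgm2 and Iigp1 of the immunity-related GTPase (Irg) family. They were chosen by name from these 2 families, with earlier results of these data known, and make up 10 of the 55487 genes listed in each count table. RNA sequencing was performed on LSK cells (Lin-Sca1+c-kit+, the marrow fraction that holds hematopoietic stem cells), on LK cells (Lin-c-kit+, myeloid progenitors) and on cultured bone marrow mesenchymal stromal cells (MSC), each treated with PBS or with interleukin-1β (IL-1β). The comparisons address how IL-1β, an inflammatory cytokine, changed gene expression in stem and progenitor cells that carry a myeloproliferative neoplasm mutation and in stromal cells. LSK and LK cells came from mice of C57BL/6 strain with the genotype Mx1Cre;Jak2VF/+ in the study's text, in which 1 allele of Jak2 carries the V617F change after recombination by Cre, and these mice were injected intraperitoneally with PBS or with 0.5 μg IL-1β per dose, 3 doses per week, for 16 weeks. The study's methods state that Cre, which is under the interferon-responsive Mx1 promoter, was switched on with pI-pC, an inducer of interferon. Elsewhere the study describes a cohort on this schedule as irradiated C57BL/6 recipients of such marrow, and whether the sequenced cells came from that cohort is not stated in the methods. MSC were grown for 21 days from C57BL/6 marrow with no Jak2 allele named in the labels, and were exposed to PBS or to 5 ng/ml IL-1β for 72 hours. LSK and LK cells had 3 PBS and 2 IL-1β libraries each, and MSC had 2 of each.

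Gbp and Irg proteins are large and small GTPases of cell-autonomous immunity. Interferon-γ and type I interferons switch their genes on through STAT and IRF transcription factors, and the proteins then assemble on vacuoles and membranes that hold pathogens, where Gbp proteins also help to start inflammasome signalling. The regulatory Irg proteins, Irgm1, Igtp (also called Irgm3) and Irgm2, stay on host membranes and hold effector Irg proteins such as Iigp1 in check. In hematopoiesis, Irgm1 is known to be needed for normal stem cell function under interferon.

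The deposited tables give unnormalized counts of read pairs per gene, and the libraries held 4393233 to 30871055 counted pairs. In LSK cells these were 12172400 to 16271408 with PBS and 4393233 and 8641124 with IL-1β, and in LK cells 12804883 to 18544346 with PBS and 6367352 and 7652483 with IL-1β, so every IL-1β library of sorted cells was shallower than every PBS library. MSC libraries held 5834909 and 13155033 pairs with PBS and 11681794 and 30871055 with IL-1β. PBS replicate 2 of LSK cells stood apart from the others, with 3671 and 3755 of 13839 genes differing more than 2-fold from the others, against 1302 between replicates 1 and 3. Labels do not say whether replicates were separate mice or cultures, so p-values measure the spread between libraries, which may be technical. Ly6a, which encodes Sca1, was called higher in LSK than in LK cells under both treatments, and the MSC libraries, labelled as stromal cells, held collagen genes together with abundant macrophage transcripts that are given beside the MSC results.

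Promoter sequences were examined because several of these genes varied together across the libraries, and they are printed to show which letters the promoters share. RefSeq promoter windows of GRCm38.p6, which run from 250 bases before to 50 after a transcription start, were at hand for 7 of the 10 genes. Each window was searched on both strands for the letters GAAANNGAA, the core of the interferon-stimulated response element (ISRE) bound by IRF factors, and for TTCNNNGAA, the core of the interferon-γ-activated site (GAS) bound by STAT dimers. In the stretches below, from 170 bases before the start to the first 20 transcribed bases, capitals mark every match to either motif. A pair of overlapping ISRE-like matches runs together in Gbp3 and in Irgm1, and no ISRE-like match overlaps a GAS-like one.
Gbp2 (chr3:142620493-142620682, plus strand): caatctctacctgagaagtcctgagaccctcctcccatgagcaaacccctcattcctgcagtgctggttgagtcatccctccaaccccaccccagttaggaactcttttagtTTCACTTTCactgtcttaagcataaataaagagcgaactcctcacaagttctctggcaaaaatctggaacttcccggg
Gbp3 (chr3:142559874-142560063, plus strand): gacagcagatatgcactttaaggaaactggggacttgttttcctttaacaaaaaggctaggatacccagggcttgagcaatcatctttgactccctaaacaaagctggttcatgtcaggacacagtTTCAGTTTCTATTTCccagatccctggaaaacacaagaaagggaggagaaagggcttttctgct
Gbp5 (chr3:142496764-142496953, plus strand): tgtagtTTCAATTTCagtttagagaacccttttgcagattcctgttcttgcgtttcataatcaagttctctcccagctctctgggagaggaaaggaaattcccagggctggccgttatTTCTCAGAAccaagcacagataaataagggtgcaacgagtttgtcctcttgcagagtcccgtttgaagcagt
Gbp7 (chr3:142530166-142530355, plus strand): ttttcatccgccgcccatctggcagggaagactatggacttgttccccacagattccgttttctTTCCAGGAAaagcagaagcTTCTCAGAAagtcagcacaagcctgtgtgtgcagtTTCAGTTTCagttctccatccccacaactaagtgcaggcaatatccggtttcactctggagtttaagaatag
Irgm1 (chr11:48871401-48871590, minus strand): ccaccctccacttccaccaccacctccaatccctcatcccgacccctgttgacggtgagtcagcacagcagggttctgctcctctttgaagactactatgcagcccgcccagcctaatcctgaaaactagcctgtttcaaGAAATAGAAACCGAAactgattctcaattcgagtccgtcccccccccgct
Igtp (chr11:58199386-58199575, plus strand): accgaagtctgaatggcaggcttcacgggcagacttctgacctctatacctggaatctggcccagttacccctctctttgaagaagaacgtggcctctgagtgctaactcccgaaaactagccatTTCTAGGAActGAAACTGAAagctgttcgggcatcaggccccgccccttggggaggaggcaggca
Irgm2 (chr11:58214807-58214996, plus strand): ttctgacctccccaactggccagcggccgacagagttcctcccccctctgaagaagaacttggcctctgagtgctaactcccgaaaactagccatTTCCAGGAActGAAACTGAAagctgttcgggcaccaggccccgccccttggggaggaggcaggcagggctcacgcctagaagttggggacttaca

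All 7 genes held an ISRE-like match in the whole window, whereas 9.76% of 27025 mouse genes in the same set did. The match lay within 64 bases of the start in Gbp2, Gbp3, Gbp7, Igtp, Irgm1 and Irgm2, and in Gbp5 it began at position -164, with the start as position 0. Gbp3 had a second window, not printed, that held no match to either motif. GAS-like matches were found in 4 of the 7 genes (Gbp5, Gbp7, Igtp and Irgm2) against 9.55% of all genes, with a further match of Gbp5 at position -245, outside the printed stretch. The windows of Igtp and Irgm2 were more alike than those of any other pair. With a shift of 30 bases they were identical at 184 of 270 bases (68.1%), while the other 20 pairs of windows reached 32.6% to 36.6% by the same measure, the best over any shift with at least 100 bases side by side. The likeness lay near the start, where the last 120 bases of the Igtp window, a stretch chosen after the sequences were seen and one that takes in both matches, were identical to Irgm2 at 118 positions (98.3%). A match is only a run of letters, and binding was not measured.

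**Figure D1:**
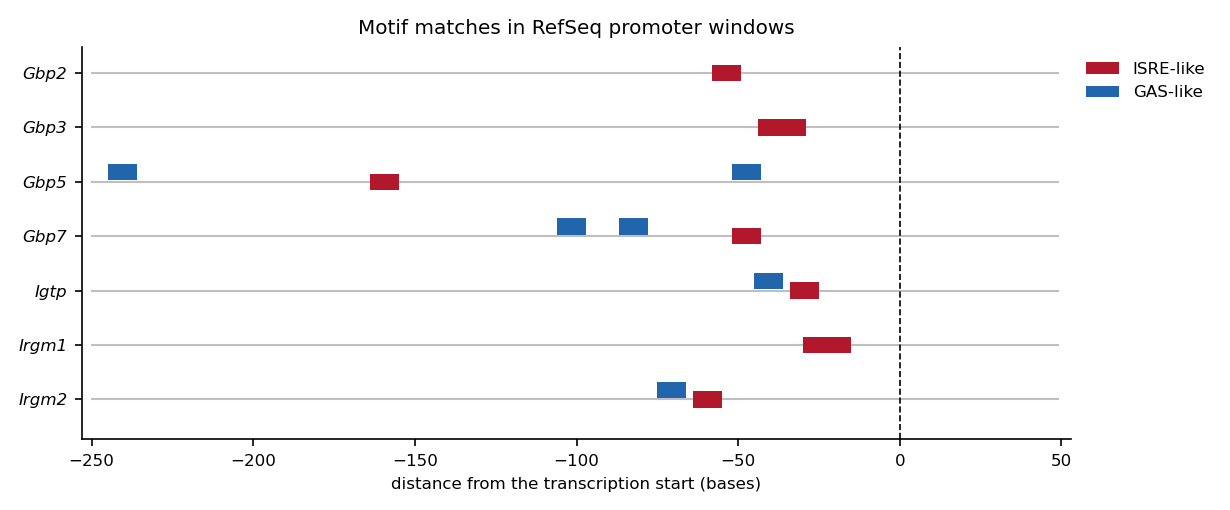
Positions of the ISRE-like and GAS-like matches in the promoter windows of 7 GTPase genes, with the distance from the transcription start in bases on the horizontal axis and 1 gene per line. An ISRE-like match is present in each of the 7 windows drawn, and in 6 of them it begins within 64 bases of the start. A second window of Gbp3, without a match, is not drawn.

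The positions of 9 of the 10 genes are given here, and that of Iigp1 is not. On GRCm38, Gbp5 (chr3:142493978-142522344), Gbp7 (chr3:142530342-142550149), Gbp3 (chr3:142560026-142573209) and Gbp2 (chr3:142620602-142638008) follow each other on the plus strand of chromosome 3, and Gbp9 (chr5:105077630-105139539) and Gbp6 (chr5:105270702-105293698) lie on the minus strand of chromosome 5. Igtp (chr11:58199556-58207591) and Irgm2 (chr11:58199618-58222782) overlap on the plus strand of chromosome 11, where Irgm1 (chr11:48861968-48871683) lies on the minus strand. Igtp and Irgm2 share 162 exon bases (8.01% and 4.39% of their exon length), and how read pairs on these bases were assigned was not tested. Gbp6 shared 28.99% of its exon bases with Gm43302, Gbp7 shared 11.35% with Gm43802, and Gbp9 shared 1.16% with Gbp8 and Gbp4, so their levels are uncertain to that extent. Gbp and Irg genes are also alike in sequence, and how read pairs that could be placed on several of them were treated was not tested.

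Under PBS, LSK cells held more of most of these transcripts than LK cells. Levels of 1 gene are compared between libraries as CPM (read pairs of the gene per TMM-adjusted library size), and levels of different genes as RPKM, in which CPM is divided by the exon length in kilobases. In PBS-treated LSK cells the highest levels per length were those of Igtp (25.6 ± 9.05 RPKM, SD, n = 3), Gbp3 (21.7 ± 3.83), Gbp2 (18.6 ± 6.45), Irgm2 (16.2 ± 1.70), Gbp7 (14.1 ± 2.43) and Irgm1 (12.4 ± 1.92). Neighbours in that order differed by less than the larger of their SDs. Iigp1 (5.31 ± 2.17 RPKM) and Gbp5 (4.86 ± 0.238) followed at a like level, and Gbp9 (0.404 ± 0.214) and Gbp6 (0.157 ± 0.0666) were scarce. In PBS-treated LK cells Gbp3 (10.7 ± 5.93 RPKM), Irgm1 (10.1 ± 1.52) and Igtp (9.14 ± 3.42) led and again did not differ beyond their spread, and Iigp1 was at 0.294 ± 0.209.

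**Figure D2:**
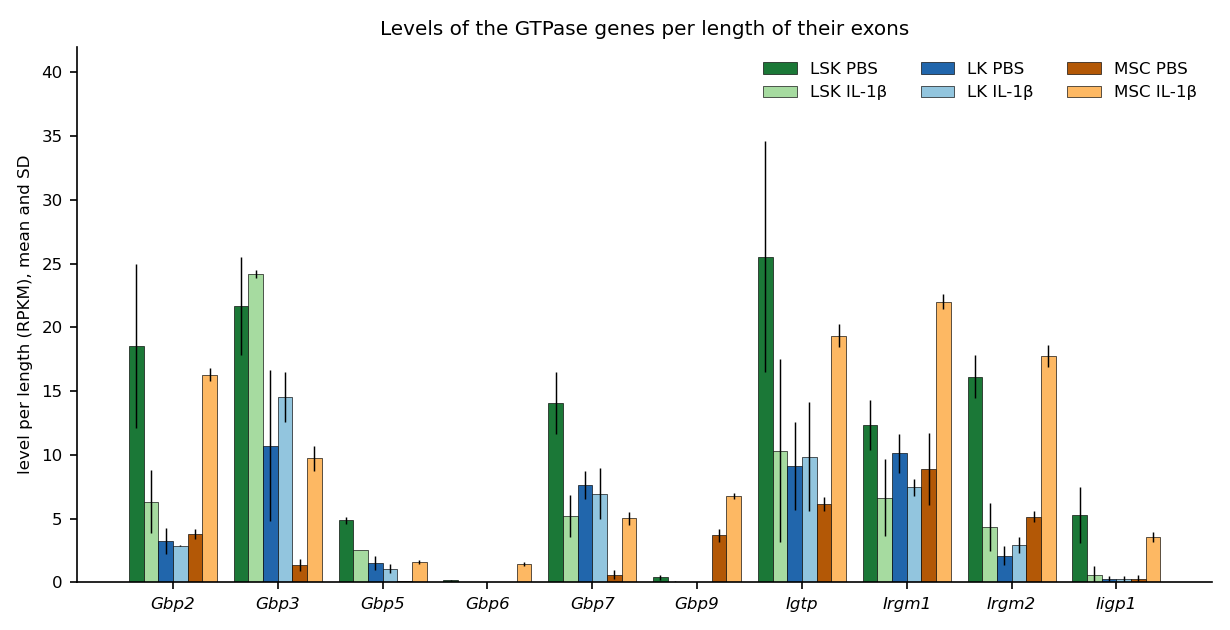
Level per exon length (RPKM) of each GTPase gene, as the mean (bar) and SD (line) over the libraries of each group, for LSK, LK and MSC with PBS or IL-1β. In PBS-treated LSK cells 6 genes lie at 12.4 RPKM or more, whereas in PBS-treated LK cells Gbp3 and Irgm1 alone pass 10, and Gbp6 and Gbp9 are low in both sorted populations.

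Of the 9 genes with enough counts to be tested between PBS-treated LSK and LK cells, 7 were called higher in LSK cells and 0 were called lower, with a median log2 fold change of 1.66 against 0.04 over all 12737 genes tested. Gbp9, with at most 1 count in a PBS library of LK cells, could pass the filter on low counts only through LSK cells, and over the 8 genes with a mean count of at least 50, a limit chosen after the data were seen, 6 were called higher (median 1.56). Iigp1, among these 8 and at 21, 10 and 41 counts in LK cells, could not have passed the filter through LK cells alone. A gene was called when edgeR's quasi-likelihood test gave an adjusted p under 0.05, by the Benjamini-Hochberg method, and the log2 fold change was above 0.5 in size. Of all genes, 18.4% were called higher in this comparison, and 26.2% had all LSK libraries above all LK libraries. Gbp6 was not tested here.

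Irgm2, a regulatory Irg protein, had the smallest adjusted p of the members. Irgm2 was at 65.1, 52.8 and 60.9 CPM in the PBS libraries of LSK cells and at 6.39, 5.93 and 10.9 CPM in those of LK cells. Every LSK library stood far above every LK library, at a log2 fold change of 2.91 (SE 0.28, adjusted p = 0.000299, edgeR). Iigp1, the effector Irg protein, was at 32.9, 17.4 and 42.5 CPM in LSK cells and at 1.68, 0.516 and 2.94 CPM in LK cells, a log2 fold change of 4.16 (SE 0.60, adjusted p = 0.00156, edgeR). Its lowest LSK library, replicate 2, was still above the highest LK library.

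Among the Gbp genes, Gbp2, which is recruited to pathogen vacuoles, was at 54.1, 28.1 and 57.9 CPM in LSK and at 6.79, 6.55 and 11.1 CPM in LK cells (log2 fold change 2.48, SE 0.34, adjusted p = 0.00132, edgeR). Gbp5, known for its part in inflammasome activation, was at 33.7, 32.5 and 30.6 CPM in LSK and at 8.14, 7.58 and 14.1 CPM in LK cells (log2 fold change 1.66, SE 0.28, adjusted p = 0.00302, edgeR). In both genes the populations did not overlap. Gbp7 (log2 fold change 0.84, adjusted p = 0.0111, edgeR) and Igtp (1.45, adjusted p = 0.0156, edgeR) were called higher in LSK cells too. Gbp9 was counted 86 times in the LSK and 2 times in the LK libraries, a ratio of 45.6 after scaling with an exact 95% interval of 12.2 to 382.1 for counting error alone, with an adjusted p of 0.00504 (edgeR). Gbp6 was counted 39 and 2 times, a ratio of 20.7 (exact 95% interval 5.35 to 176.6).

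Gbp3 and Irgm1 were the members tested but not called. Gbp3 was at 64.2, 63.2 and 85.3 CPM in LSK and at 26.4, 21.4 and 57.1 CPM in LK cells, with adjusted p = 0.0633 (edgeR). All 3 LSK libraries lay above the LK libraries, and replicate 3 was the highest of both populations. With the replicate number as a block, an alternative to the main fit, Gbp3 was called (log2 fold change 1.10, adjusted p = 0.00551, edgeR) and the count became 8. Irgm1 was at 80.4, 59.1 and 75.8 CPM in LSK and at 67.0, 49.5 and 60.3 CPM in LK cells, with overlapping libraries and a log2 fold change of 0.25 (SE 0.19, adjusted p = 0.348, edgeR). Without either the first or the second PBS replicate of LK cells 5 members were called, and without the third 9 were.

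After 16 weeks of IL-1β, 9 of the 10 genes were lower in both IL-1β libraries of LSK cells than in all 3 PBS libraries, and 1 of them, Irgm2, passed the test. Of all 13132 genes tested, 21.4% had lower IL-1β libraries with no overlap, 0.312% were called lower and 0.632% were called in either direction. The median log2 fold change of the 10 genes was -1.45 against -0.06 over all genes, of which 53.5% were below 0. Gbp6 and Gbp9 passed the filter on low counts through the PBS libraries, and of the 8 genes with a mean count of at least 50, 7 were below 0 (median -1.34). Iigp1, among these 8 and at 6 and 26 counts with IL-1β, could not have passed through the IL-1β libraries alone. The design had 2 IL-1β libraries and a typical coefficient of variation of 0.377 between libraries, the largest of the 3 populations, and 8 of the 10 genes (all but Gbp3 and Gbp9) had an unadjusted p under 0.05, as did 18.5% of all genes.

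Irgm2 was at 65.1, 52.8 and 60.9 CPM with PBS. It was at 11 and 20.8 CPM after IL-1β, and the log2 fold change was -1.89 (SE 0.34, adjusted p = 0.0448, edgeR). Both IL-1β libraries were under every PBS library by more than the spread within either group. The call was lost without PBS replicate 1 (adjusted p = 0.069, edgeR) and without either IL-1β replicate (adjusted p = 0.143 without the first and 0.155 without the second, edgeR), while the log2 fold change stayed between -2.36 and -1.49 in these fits. Without PBS replicate 2, which stood apart, 3 members were called lower (Gbp2, Gbp7 and Irgm2).

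Iigp1 was at 32.9, 17.4 and 42.5 CPM with PBS and at 0.710 and 6.37 CPM with IL-1β (log2 fold change -3.23, SE 0.78, adjusted p = 0.0926, edgeR). Both of the IL-1β values were below the lowest PBS library and differed from each other several-fold. Gbp7, a Gbp protein linked to assembly of the phagocyte oxidase, was at 92.7, 65.4 and 78.8 CPM with PBS and at 35.7 and 22.6 CPM with IL-1β (log2 fold change -1.38, SE 0.30, adjusted p = 0.0771, edgeR). Gbp2 was at 54.1, 28.1 and 57.9 CPM with PBS and at 11.6 and 20.3 CPM with IL-1β (log2 fold change -1.53, SE 0.41, adjusted p = 0.112, edgeR). In each of these 3 genes the treatments did not overlap, and none passed the threshold in this fit. All 3 were called by DESeq2, in a joint fit with the LK libraries and without a filter on low counts, and not by limma-voom.

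Gbp5 was at 33.7, 32.5 and 30.6 CPM with PBS and at 17.0 and 16.9 CPM with IL-1β (log2 fold change -0.89, SE 0.29, adjusted p = 0.171, edgeR), with very little spread in either group. Igtp was at 53.7, 32.5 and 68.9 CPM with PBS and at 10.7 and 31.1 CPM with IL-1β (log2 fold change -1.30, SE 0.48, adjusted p = 0.201, edgeR), so that its higher IL-1β library came close to PBS replicate 2. Irgm1 was at 80.4, 59.1 and 75.8 CPM with PBS and at 26.4 and 51.0 CPM with IL-1β (log2 fold change -0.87, SE 0.32, adjusted p = 0.206, edgeR). For Irgm2, Iigp1, Igtp, Irgm1 and Gbp2 the second IL-1β library was higher than the first.

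The scarce genes were lower too, on few reads. Gbp6 had 18, 11 and 10 counts with PBS and none in either IL-1β library, so its mean of 0.933 CPM with PBS was at least 1.71-fold higher than the level that 3 counts per IL-1β library would give, and its adjusted p was 0.215 (edgeR). Gbp9 had 26, 42 and 18 counts with PBS and 4 and 1 with IL-1β (adjusted p = 0.306, edgeR). Without a filter on low counts neither of them was among the 5 genes called.

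Gbp3 was the exception in LSK cells. It was at 64.2, 63.2 and 85.3 CPM with PBS and at 78.2 and 79.7 CPM with IL-1β, with the IL-1β libraries inside the range of the PBS libraries and a log2 fold change of 0.19 (SE 0.25, adjusted p = 0.722, edgeR). Gbp3 had the highest level per length of the 10 genes in IL-1β-treated LSK cells, at 24.2 ± 0.311 RPKM (SD, n = 2), followed by Igtp at 10.3 ± 7.16 RPKM.

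**Figure D3:**
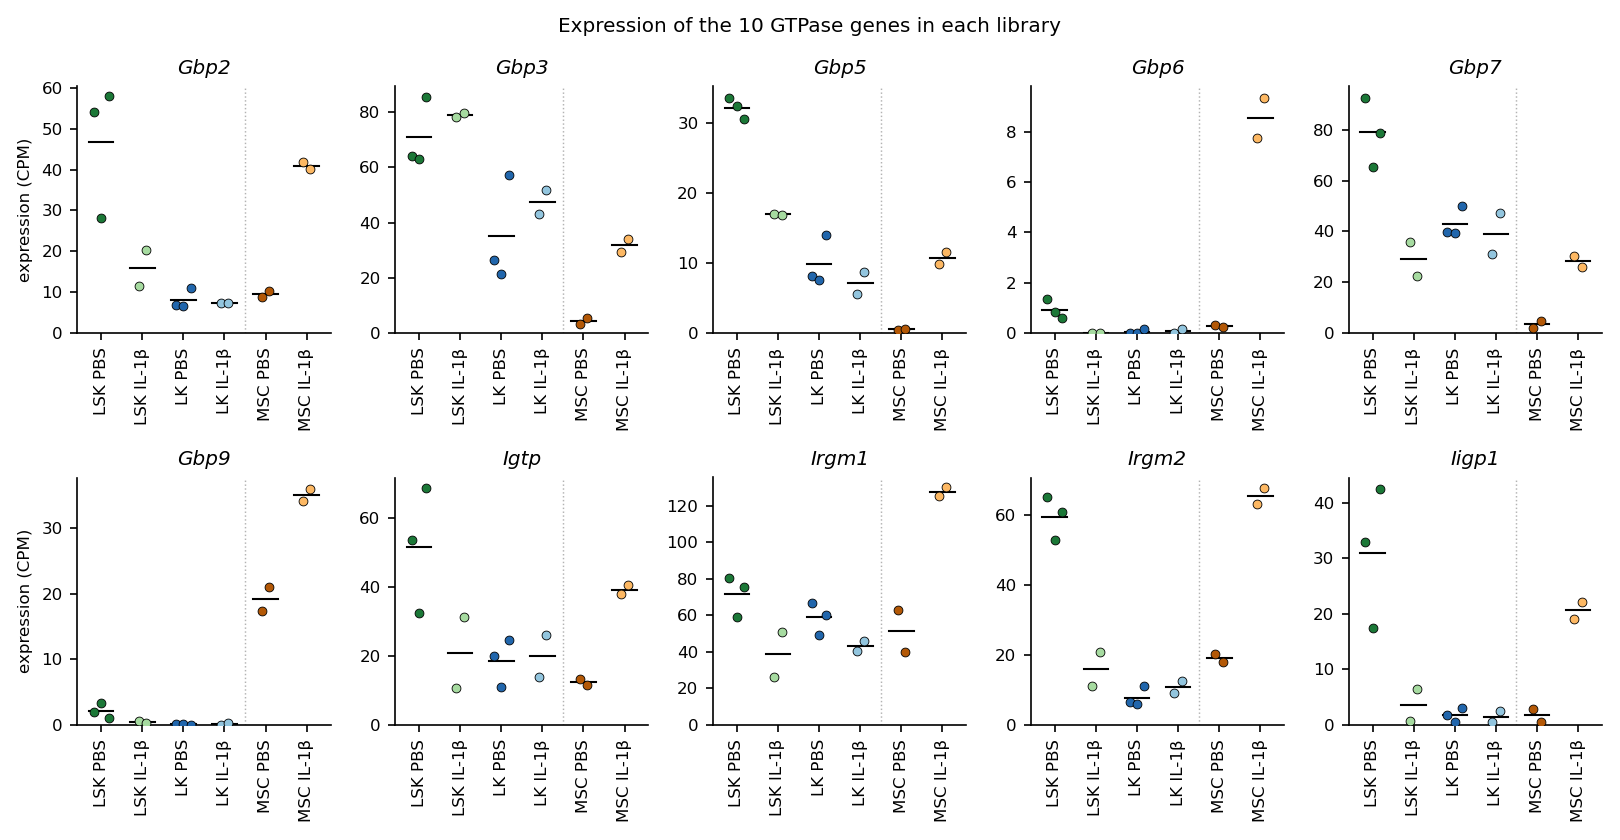
Expression of each GTPase gene (CPM, vertical axes from 0) in every library of LSK, LK and MSC with PBS or IL-1β, with 1 point per library and a line at the group mean; sorted cells and MSC were scaled separately. In LSK cells the IL-1β points of 9 genes lie under all PBS points, in LK cells they mostly overlap, and in MSC all IL-1β points lie above the PBS points.

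Other measured properties of the LSK libraries moved with these genes. All 8 genes listed as markers of LSK cells were lower in both IL-1β libraries than in every PBS library, an arrangement that 21.4% of all genes showed. Their summed level was 1435.0 to 1888.0 CPM with PBS and 831.0 to 926.5 CPM with IL-1β, and Flt3 (log2 fold change -2.42) and Hlf (-2.08) were called. Mllt3 of that list was lower in LSK than in LK cells with PBS (means of 22.5 and 53.5 CPM), and Kit is also on the progenitor list below. Ly6a, which encodes the Sca1 antigen of the sort, was at 28.5, 41.7 and 32.2 CPM with PBS and at 14.8 and 26.2 CPM with IL-1β (adjusted p = 0.31, edgeR). The 8 markers of committed progenitors summed to 2632.0 to 3642.0 CPM with PBS and 9511.0 to 10750.0 CPM with IL-1β, with Ms4a3, Elane and Mpo, all granulocyte genes, called higher. Mpo made up most of that sum, at a mean of 1980 CPM with PBS and 7232 CPM with IL-1β. Of the same list, Kit was at 534.6 and 343.5 CPM (adjusted p = 0.282, edgeR), and the erythroid genes Klf1 (36.7 and 37.6 CPM) and Car1 (136.5 and 134.2 CPM) overlapped between treatments. Neutrophil markers summed to 1.28 to 8.33 CPM with PBS and 15.2 to 67.3 CPM with IL-1β, and 0 of the 5 tested were called. Macrophage markers summed to 337.6 to 386.7 and 241.9 to 258.9 CPM. Both IL-1β libraries were also shallower than every PBS library. The part of these differences in the levels of the GTPase genes was not tested, and in bulk RNA fewer cells of a type cannot be told apart from less RNA per cell.

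In LK cells no member was called between IL-1β and PBS. Gbp6 and Gbp9 had at most 2 counts in any LK library and were not tested. The log2 fold changes of the other 8 genes lay between -0.48 and 0.48 with a median of -0.15, against -0.03 over all 12835 genes, of which 9.34% were called in either direction, and 1 of the 8 (Irgm1) had an unadjusted p under 0.05, as did 24.7% of all genes. DESeq2 and limma-voom called none of the 8 either.

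Irgm1 was at 67.0, 49.5 and 60.3 CPM with PBS and at 40.5 and 46.2 CPM with IL-1β in LK cells, the only member whose IL-1β libraries were all lower (log2 fold change -0.44, SE 0.16, adjusted p = 0.123, edgeR), and 22.2% of all genes had lower IL-1β libraries with no overlap. Irgm2 was at 6.39, 5.93 and 10.9 CPM with PBS and at 9.17 and 12.4 CPM with IL-1β (log2 fold change 0.48, SE 0.33, adjusted p = 0.415, edgeR). Gbp3 was at 26.4, 21.4 and 57.1 CPM with PBS and at 42.9 and 52.0 CPM with IL-1β (log2 fold change 0.44, SE 0.44, adjusted p = 0.588, edgeR). PBS replicate 3 was the highest PBS library for Irgm2 and for Gbp3, and without it Gbp3 and Irgm2 were both called higher (Irgm2 log2 fold change 0.81, adjusted p = 0.043, edgeR). Gbp2, Gbp5, Gbp7, Igtp and Iigp1 overlapped between treatments, with log2 fold changes of -0.16, -0.48, -0.14, 0.11 and -0.30. Neutrophil markers moved in these libraries too, from a sum of 3.51 to 15.5 CPM with PBS to 151.2 and 354.9 CPM with IL-1β, and S100a8 and S100a9 were called higher. Of the 8 progenitor markers, 4 were called higher and 3 (Gata1, Klf1 and Car1, of the erythroid lineage) were called lower.

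The difference between the LSK and LK responses was tested as an interaction over the 10 sorted libraries, a comparison that shares its LSK and LK libraries with those above. Gbp6 and Gbp9 had too few counts in LK cells for a response there. The other 8 genes had a lower response in LSK than in LK cells, with a median of -1.34 against -0.12 over all 13839 genes, and 0 of the members were called, where 0.0289% of all genes were and 56.4% had a value below 0. Irgm2 (-2.40, SE 0.48, adjusted p = 0.122, edgeR), Gbp7 (-1.28, adjusted p = 0.195, edgeR), Gbp2 (-1.40, adjusted p = 0.284, edgeR) and Iigp1 (-2.96, adjusted p = 0.339, edgeR) had an unadjusted p under 0.05, and no other member did, against 14.2% of all genes. DESeq2 called Irgm2 alone and limma-voom called none. With same-numbered LSK and LK libraries of a treatment as a replicate block, a fit chosen after the data were seen, Irgm2 was called (-2.48, adjusted p = 0.0311, edgeR). It was also called without LSK PBS replicate 2 (-2.49, adjusted p = 0.0401, edgeR), the library that stood apart.

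Between LSK and LK cells that had both received IL-1β, no member of the 8 tested was called, where 8.32% of all 11743 genes were called, with a median log2 fold change of 0.64. At an unadjusted p under 0.05 there were 3 (Gbp2, Gbp3 and Gbp5), against 27.8% of all genes, DESeq2 called none and limma-voom called Gbp5. Gbp2 (log2 fold change 1.11, adjusted p = 0.103, edgeR), Gbp3 (0.74, adjusted p = 0.0666, edgeR) and Gbp5 (1.26, adjusted p = 0.0623, edgeR) were higher in both LSK libraries than in both LK libraries, an arrangement that 28.4% of all genes showed. Without LSK IL-1β replicate 1 the count was 6, with Gbp7 lower and the rest higher in LSK cells, and without replicate 2 it was 3, with Irgm1 lower and Gbp3 and Gbp5 higher.

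In MSC these genes rose with IL-1β. All 10 genes were called higher with IL-1β than with PBS, with a median log2 fold change of 2.42 against 0.00 over all 13239 genes, of which 7.14% were called higher. Gbp5 and Gbp6, with at most 7 and 3 counts in a PBS library, passed the filter on low counts through the IL-1β libraries, which fixed their direction. Iigp1, with 17 and 7 counts in the PBS libraries, could not have passed through these alone. In each gene both IL-1β libraries were above both PBS libraries, as in 31.3% of all genes. The log2 fold changes ran from 0.86 (Gbp9) to 4.98 (Gbp6).

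Gbp5 was at 0.500 and 0.527 CPM with PBS and at 9.84 and 11.6 CPM with IL-1β (log2 fold change 4.34, SE 0.31, adjusted p = 0.00196, edgeR). Iigp1 was at 2.83 and 0.527 CPM with PBS and at 19.0 and 22.2 CPM with IL-1β (log2 fold change 3.90, SE 0.61, adjusted p = 0.0234, edgeR). Gbp6 had 2 and 3 counts with PBS and 237 and 106 with IL-1β, a ratio of 31.6 after scaling with an exact 95% interval of 13.4 to 98.0 for counting error alone (adjusted p = 0.00262, edgeR). These were scarce transcripts in the PBS-treated cultures and the folds of Gbp5, Gbp6 and Iigp1 were the largest of the 10.

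Gbp7 was at 2.0 and 4.82 CPM with PBS and at 30.3 and 26.0 CPM with IL-1β (log2 fold change 2.93, SE 0.34, adjusted p = 0.00856, edgeR). Gbp3 was at 3.34 and 5.57 CPM with PBS and at 29.5 and 34.1 CPM with IL-1β (log2 fold change 2.76, SE 0.25, adjusted p = 0.00379, edgeR). Gbp2 was at 8.84 and 10.3 CPM with PBS and at 41.9 and 40.1 CPM with IL-1β (log2 fold change 2.08, SE 0.14, adjusted p = 0.00185, edgeR). Gbp3, whose IL-1β libraries lay inside the PBS range in LSK cells, was among the genes called in MSC.

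The regulatory Irg genes rose by smaller folds from higher starting levels. Irgm1 was at 63.2 and 39.9 CPM with PBS and at 125.5 and 130.5 CPM with IL-1β (log2 fold change 1.33, SE 0.22, adjusted p = 0.0222, edgeR). Irgm2 was at 20.2 and 17.9 CPM with PBS and at 63.2 and 67.7 CPM with IL-1β (log2 fold change 1.79, SE 0.12, adjusted p = 0.00185, edgeR). Igtp was at 13.2 and 11.6 CPM with PBS and at 37.9 and 40.4 CPM with IL-1β (log2 fold change 1.67, SE 0.14, adjusted p = 0.00297, edgeR). Irgm1, Igtp, Irgm2 and Gbp2 had the highest levels per length in MSC with either treatment, at 22.0, 19.4, 17.7 and 16.3 RPKM with IL-1β.

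Gbp9 was at a higher level in MSC than in sorted cells. It was at 17.3 and 21.0 CPM in PBS-treated and at 34.2 and 36.0 CPM in IL-1β-treated MSC (log2 fold change 0.86, SE 0.14, adjusted p = 0.0206, edgeR), whereas no LSK library passed 3.26 CPM and LK libraries had 0 or 1 count. Levels of MSC and sorted cells were scaled separately, so the contrast is given without a test. Gbp8, with which it shares exon bases, had means of 5.73 CPM in PBS-treated MSC, 1.05 CPM in LSK and 0.0411 CPM in LK cells.

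The MSC calls depended on which library was left out. All 10 genes stayed called without either PBS library, 0 were called without IL-1β replicate 1 and 2 (Gbp2 and Irgm2) without IL-1β replicate 2, where few genes of the whole table were called at all. Macrophage markers were abundant in these cultures. The 12 markers summed to 13650.0 and 17720.0 CPM with PBS and to 34600.0 and 35540.0 CPM with IL-1β, none of them was at 0 in any MSC library, and 7 were called higher, among them Lyz2 (7133 and 4803 CPM with PBS, 19870 and 20800 CPM with IL-1β) and Adgre1. Lyz2 made up most of the sums with IL-1β. Cd68 of the same list went the other way, at 1089 to 1520 CPM with PBS and 867 to 1011 CPM with IL-1β. Of the 8 neutrophil markers 3 had enough counts to be tested in MSC, and 2, Camp and Mmp8, were called higher. S100a9, Ngp, Retnlg and Ly6g had 0 counts in all MSC libraries, and Ltf had means of 0.651 CPM with PBS and 0.0656 CPM with IL-1β. The 8 markers summed to 2.26 and 2.83 CPM with PBS and to 16.9 and 17.1 CPM with IL-1β. The 12 mesenchymal markers summed to 1574.0 and 3361.0 CPM with PBS and to 4019.0 and 4557.0 CPM with IL-1β, with Lepr at 0 in both PBS libraries. The part of the macrophage RNA, and of any neutrophil RNA, in the rise of the GTPase genes was not tested.

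**Figure D4:**
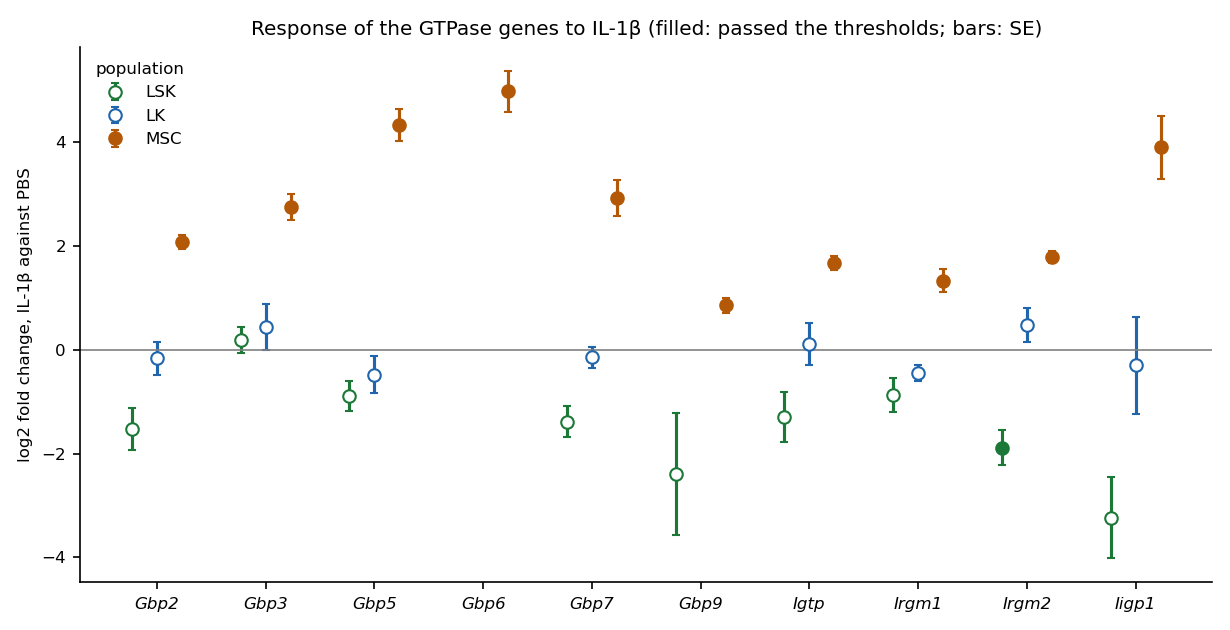
Log2 fold change of each GTPase gene between IL-1β and PBS in LSK, LK and MSC, with the SE as a bar; filled points passed both thresholds, and genes without a point in a population were not tested or, for Gbp6 in LSK cells, had no counts with IL-1β. All 10 MSC points are filled and above 0, Irgm2 is the filled LSK point, and the LK points lie between -0.48 and 0.48.

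The MSC and LSK responses were compared directly in a fit of both tables that was added after the data were seen, with no shared libraries between the responses. The response was higher in MSC for the 9 genes with a mean count of at least 50 (all but Gbp6), with a median difference of 3.63 on the log2 scale against 0.12 over all 14901 genes, of which 54.9% were above 0, and 9 of the 10 members, Gbp6 included, were called, where 1.99% of all genes were called higher. The largest called difference with counts in all 4 groups was that of Iigp1 (7.07, SE 1.23, adjusted p = 0.0193, edgeR), followed by Gbp5 (5.24, SE 0.43, adjusted p = 0.000793, edgeR). Gbp9 was not called (3.20, SE 0.80, adjusted p = 0.0627, edgeR). Without MSC PBS replicate 3 the count was 4. MSC differed from LSK cells in genotype, in dose, in duration and in being cultured, so cell type cannot be told apart from these.

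Transcripts of the ligand were not detected in these cells. Ifng, which encodes interferon-γ, had 0 counts in all 14 libraries, and Ifnb1 had 2 counts in 1 IL-1β library of MSC and none elsewhere; at these depths a count of 0 allows up to 3 counts per library. Markers of lymphocytes and NK cells, which produce interferon-γ, summed to at most 1.21 CPM in MSC. In LSK cells they summed to 101.1 to 112.1 CPM with PBS and 209.5 to 307.1 CPM with IL-1β, nearly all of it from Nkg7, and 3 to 7 of the 10 markers were at 0.

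The receptor chains gave other values. Ifngr1 was at 80.1, 38.9 and 112.2 CPM in PBS-treated and at 124.3 and 168.4 CPM in IL-1β-treated LSK cells (log2 fold change 0.96, adjusted p = 0.236, edgeR), with both IL-1β libraries above the PBS libraries, the reverse of the order of the GTPase genes. It was also lower in LSK than in LK cells with PBS (log2 fold change -1.48, adjusted p = 0.0125, edgeR). In MSC Ifngr1 (0.38, adjusted p = 0.237, edgeR) and Ifngr2 (0.16, adjusted p = 0.322, edgeR) were not called, and Jak2, their kinase, was (1.06, adjusted p = 0.0175, edgeR). Of 3 genes of the type I interferon receptor that were tested, 0 were called in LSK cells with IL-1β and 1 was called higher in MSC.

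STAT and IRF factors, which carry the signal to the promoters, were read in the same fits. All 9 STAT and IRF genes of the list had a log2 fold change below 0 in LSK cells with IL-1β (median -1.07), and 1, Irf8 (-2.48, adjusted p = 0.0207, edgeR), was called. Irf1 was at 108.2, 126.8 and 126.8 CPM with PBS and at 55.4 and 77.7 CPM with IL-1β (adjusted p = 0.155, edgeR). Its libraries did not overlap between treatments. In LK cells 2 of the 9, Irf8 (-2.59, adjusted p = 0.0122, edgeR) and Irf9 (-0.84, adjusted p = 0.0181, edgeR), were called lower, while the GTPase genes were not. In MSC 7 of the 9 were called higher with a median of 0.93, led by Irf7 (4.41, adjusted p = 0.00367, edgeR) and Stat2 (2.20, adjusted p = 0.00124, edgeR). Between PBS-treated LSK and LK cells 4 of the 9 were called higher in LSK cells, among them Irf1 (2.04, adjusted p = 0.000414, edgeR).

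Other GTPases of both families, 17 genes in a list that leaves the 10 out, were read in the same way. In LSK cells with IL-1β 0 of the 13 tested were called. Gbp4, Gbp8 and F830016B08Rik had no counts in either IL-1β library, and 9930111J21Rik1 had 1, so that passing the filter on low counts fixed their direction. The 8 with a mean count of at least 50 were below 0 (median -2.80). Among these 8, Gm4841, Gvin1, Gm4951 and Tgtp1 had at most 8, 13, 10 and 9 counts in an IL-1β library. They could not have passed the filter through the IL-1β libraries alone, so the filter leaned towards values below 0 for them. In MSC 5 of the 9 tested were called higher, among them Gm4951 (4.50, adjusted p = 0.00176, edgeR), Gm12250 (3.29, adjusted p = 0.00262, edgeR) and Ifi47 (2.78, adjusted p = 0.00262, edgeR). Gm4951, with at most 6 counts in a PBS library of MSC, passed the filter through the IL-1β libraries. Between PBS-treated LSK and LK cells 9 of the 12 tested were called higher in LSK cells, and 6 of the 8 with a mean count of at least 50. Gvin1 and Gm4951, among these 8 and with at most 13 and 6 counts in an LK library, passed the filter through LSK cells. Several of these genes are near-identical copies, and Gbp2b had no counts in any library.

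Genes of the type I interferon response and other interferon-γ targets were set beside the GTPases in the same way. Of 12 type I interferon-stimulated genes, the 9 with a mean count of at least 50 were below 0 in LSK cells with IL-1β (median -1.12), and Ifi44, with no counts in either IL-1β library, was called lower. Ifi44 is among these 9 and passed the filter on low counts through the PBS libraries, which fixed its direction. All 12 were called higher in MSC (median 3.04), among them Ifit1 (3.85, adjusted p = 0.00128, edgeR) and Oasl2 (2.81, adjusted p = 0.00161, edgeR). Of the other interferon-γ targets, 4 of 8 tested were below 0 in LSK cells and Nlrc5, the activator of MHC class I genes, was called lower (-1.66, adjusted p = 0.0217, edgeR), while 6 of 10 were called higher in MSC, Nlrc5 (2.07, adjusted p = 0.00176, edgeR) and Tap1 (1.45, adjusted p = 0.00211, edgeR) among them. Of the autophagy and inflammasome partners of the GTPases, 0 of 11 tested were called in LSK cells and 3 of 12 (Rnf213, Casp4 and Nlrp3) were called higher in MSC. Among negative regulators, Socs3 (3.04, adjusted p = 0.000584, edgeR) and Usp18 (3.61, adjusted p = 0.00161, edgeR) were called higher in MSC, and none of 6 was called in LSK cells.

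Across the 10 sorted libraries the members varied together to different degrees. Over their 45 pairs, Pearson correlations of log2 CPM ran from -0.04 to 0.96 with a median of 0.73, as a description of libraries that share populations, treatments and depth. The mean standardised log2 CPM of the 10 genes was highest in PBS-treated LSK cells, at 1.33, 0.92 and 1.24 in the 3 libraries. Of 13829 other genes, the 5 whose profile was most like that mean over the 10 libraries were Zbp1 (r = 0.97), a sensor of nucleic acids, Ppp2r3a (r = 0.958), Trim34a (r = 0.957), Gm5540 (r = 0.957) and Fhl1 (r = 0.954). Of these, Zbp1 (3.49, adjusted p = 0.000601, edgeR) and Trim34a (1.18, adjusted p = 0.01, edgeR) were called higher with IL-1β in MSC, whose libraries were not used to choose them, and Ppp2r3a (0.17, adjusted p = 0.601, edgeR) and Fhl1 (-0.47, adjusted p = 0.586, edgeR) were not. Gm5540 had too few counts to be tested there.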

How the data were processed

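The authors deposited raw counts of read pairs per gene. Per the labels, the submitters' processing notes and the file headers, RNA was depleted of rRNA, reads were trimmed with fastp 0.20.0 and aligned with HISAT2 2.0.1, SAMtools 1.10 was used, and read pairs were counted on Ensembl genes of GRCm38 with featureCounts 2.0.2 in reverse-stranded mode. The study's methods name GenomicAlignments for counting. A further IL-1β library of MSC named in a header was not analysed here.

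The counts were analysed in R 4.3.3 with edgeR 4.0.16 (filterByExpr with a count minimum of 10, TMM, robust glmQLFit, two-sided glmQLFTest, Benjamini-Hochberg adjustment over all genes tested), within the groups of each comparison. CPM and RPKM used TMM factors over the 10 sorted libraries and over the 4 MSC libraries separately, with the exon lengths of the tables. Log2 CPM for correlations had a prior count of 2. The SE was taken from the log2 fold change and its F statistic, as their ratio after a square root of F. Counts of 0 were given a floor of 3 counts per library, and intervals and floors cover counting error only, since PCR copies are not independent molecules. Symbols came from GENCODE M21 for 55141 of 55487 identifiers, and promoters from RefSeq on GRCm38.p6.

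Same-numbered PBS libraries of LSK and LK cells correlated in their deviations from the group means (r = 0.211, 0.128 and 0.472). Differently numbered ones ran from -0.381 to 0.162, so the numbers 1 and 2 did not set pairs apart. The main fits had no block, and the replicate number entered only in alternative fits. The alternatives were DESeq2 1.42.0, limma-voom (limma 3.58.1), each library left out in turn, fits without the filter on low counts or without the fold threshold, size factors of DESeq2 or upper-quartile factors in place of TMM, a block for the replicate number, and all 10 sorted libraries fitted together. The tests were also run on simulated counts in which no library stood apart, and the outcome is not given here. Figures were drawn with matplotlib 3.10.9. Named genes are the 10 members, up to 5 called genes of each other list with the smallest adjusted p, Ly6a, Kit, Ifng, Ifngr1, Ifngr2 and Irf1, and the 5 genes most like the members; a further gene of this rule is not reported here. Nkg7, Lepr, Gbp2b and Ifnb1 were named after their values were seen, as were the genes whose exons overlap the members. The same holds for Cd68, Ngp, Retnlg, Ly6g, Ltf, Gm4841, Gvin1 and Tgtp1. The members and the gene lists were chosen with earlier results of these data known.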

Additional observations from a re-analysis of the deposited data

Results flagged for a closer look

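The response to IL-1β differed between MSC and LSK cells for 9 of the 10 GTPase genes, by a test of the difference itself (edgeR's quasi-likelihood test over both tables, added after the data were seen). The difference, as the log2 fold change in MSC minus that in LSK cells, was 3.63 for Gbp2, 2.60 for Gbp3, 5.24 for Gbp5, 4.35 for Gbp7, 2.98 for Igtp, 2.20 for Irgm1, 3.69 for Irgm2 and 7.07 for Iigp1, with adjusted p from 0.000793 (Gbp5) to 0.0381 (Igtp). For Gbp6 the fitted difference was 11.35 (adjusted p = 0.00917), a value that depends on the prior count because IL-1β-treated LSK cells had no counts of it. Gbp3 is the only one of the 9 whose log2 fold change in LSK cells was above 0. Genotype, dose, duration and culture differed along with the cell type, and macrophage transcripts in MSC and progenitor transcripts in LSK cells moved with the treatment; the part of each in these differences was not tested.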

How the results depend on the processing

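With IL-1β in LSK cells 1 member was called, against 4 by DESeq2, 0 by limma-voom, 5 without a filter on low counts and 4 in the joint fit with LK cells, and leaving out 1 library gave 0 to 3. No log2 fold change of a member changed sign there under any alternative run. In LK cells leaving out 1 library gave 0 to 2 calls against 0. In MSC it gave 0 to 10 against 10, and every tool and scaling gave 10. Between LSK and LK cells with PBS it gave 5 to 9 against 7. With IL-1β it gave 0 to 6 against 0, limma-voom gave 1 (Gbp5) and no filter on low counts gave 3. For the interaction of treatment and population DESeq2 gave 1, no filter gave 2, and leaving out 1 library gave 0 to 1 against 0. For the difference of the MSC and LSK responses leaving out 1 library gave 4 to 10 against 9. Counting only members with a mean count of at least 50, a limit chosen after the data were seen, left 1, 0, 10, 6, 0, 0 and 8 calls in these 7 comparisons. That mean can be reached through the higher group alone, as by Gbp5, Gbp6 and Iigp1 in MSC through the IL-1β libraries, and by Iigp1 in LSK cells through the PBS libraries. A library left alone in its group was assumed to vary like the others. Values near 0 changed sign. In LK cells with IL-1β, leaving out 1 library moved the log2 fold change of Gbp2 between -0.30 and 0.13, Gbp7 between -0.46 and 0.12, Igtp between -0.40 and 0.49 and Iigp1 between -2.05 and 0.50. Between LSK and LK cells with IL-1β the ranges were -0.89 to 0.67 for Igtp, -0.71 to 0.25 for Irgm1 and -0.91 to 3.01 for Iigp1, and limma-voom gave -0.20 for Igtp. The interaction of Gbp9 ranged from -4.06 to 0.02 on very few counts. The cause of these changes was not tested.

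With the replicate number as a replicate block, members called were 4 in LSK cells and 1 (Gbp3, higher) in LK cells with IL-1β, 8 between LSK and LK cells with PBS and 3 with IL-1β, and 0 for the interaction. Log2 fold changes became 0.13 for Gbp2 and 0.37 for Iigp1 in LK cells, and -0.05 for Igtp between LSK and LK cells with IL-1β. PBS and IL-1β libraries of the same number shared only that number (r between -0.102 and 0.126), and IL-1β libraries of LSK and LK cells correlated at 0.10. The block within treatment, added after the data were seen, gave 1 call for the interaction. No paired fit was made for MSC, which share 1 number. Counts over all genes (higher and lower) moved as well. In LSK cells with IL-1β they were 42 and 41, against 417 and 488 by DESeq2, 19 and 2 by limma-voom, 355 and 514 without the filter, 314 and 388 with the block and 547 and 681 in the joint fit. In LK cells they were 869 and 330, against 1151 and 693 without the filter, 1462 and 869 with the block and 421 and 68 in the joint fit. In MSC they were 945 and 570, against 1439 and 915 without the filter. Between LSK and LK cells with IL-1β they were 491 and 486, against 1070 and 1094 without the filter and 1013 and 1044 with the block. The interaction gave 1 and 3, against 112 and 220 by DESeq2, 1 and 0 by limma-voom, 170 and 228 without the filter and 1 and 23 with the block within treatment. The MSC and LSK difference gave 296 and 123, against 817 and 767 by DESeq2, 182 and 89 by limma-voom and 987 and 499 without the filter. Gbp6 and Gbp9 had few counts in sorted cells, and a difference with IL-1β was not detectable in LK cells at these depths.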
